A study of Mus musculus castaneus and Mus musculus domesticus and Mus musculus with 11 samples.

Results

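Cells take up cystine, the oxidised pair of cysteine, and turn it into glutathione, the main small thiol that removes peroxides. Transcription of many of these genes, Slc7a11 among them, is driven by NRF2, a stress-responsive transcription factor that the adaptor KEAP1 holds down in unstressed cells, and Slc7a11 is also a known target of ATF4, the transcription factor of the amino acid response. In nervous tissue the cystine carrier is known mainly from astrocytes, which pass glutathione precursors on to neurons. The genes described here are 10 listed by symbol, namely Slc7a11, Slc3a2, Gclc, Gclm, Gss, Gsr, Gpx4, Hmox1, Nqo1 and Txnrd1. Of these, 9 were matched by Ensembl gene ID among the 27071 genes of the deposited matrix, and Gpx4, the glutathione peroxidase of membrane lipids, was not analysed here.

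RNA was taken from stem cell-derived motor neuron cultures of 3 mouse lines, with 3 libraries each. The hybrid is labelled 129CAS and described as a cross of CASTx129, CAST is the wild-derived strain CAST/EiJ, and 129 is the laboratory strain 129S6/SvEv. No treatment, time or age is given, and the labels do not say whether a line is a single clone nor whether its 3 libraries were grown apart. The p-values below therefore cover the spread between these samples, which may be technical. A further 2 CAST samples were not analysed here. Total counts per library ran from 7763077 to 18167577.

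All 9 motor neuron markers of a fixed list were read in every line, with summed levels of 265 to 318 CPM in the hybrid, 282 to 468 CPM in CAST and 291 to 985 CPM in 129. CPM is the read count of a gene scaled to a fixed library size. Fibroblast and mesenchyme markers were read in every line too, with sums of 1022 to 19198 CPM in the hybrid, 842 to 4282 CPM in CAST and 3784 to 18167 CPM in 129. In bulk RNA, fewer cells of a type and less RNA per cell cannot be told apart. The libraries CAST 1 and hybrid 2 stood apart in that long transcripts were relatively scarce in them. Regressing a gene's relative log2 level on its log2 exon length gave a slope of −0.60 for hybrid 2 and −0.49 for CAST 1, while the remaining slopes ran from −0.25 to 0.31.

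The question was whether genes of NRF2 and glutathione metabolism follow Slc7a11 across the lines. The genes were chosen by the Slc7a11 counts of these same libraries, which were high in the hybrid, so the Slc7a11 values are a description without a test. Slc7a11 was read many times more often in the hybrid than in either parental line. None of the other 8 members was called higher in the hybrid. Their highest fitted log2 fold change was 0.20 against 129 and 0.14 against CAST, where Slc7a11 had 6.22 and 6.33. The highest upper ends of their edgeR intervals were 1.14 and 1.15, so smaller rises stay possible. The edgeR quasi-likelihood test, with Benjamini-Hochberg adjustment over 14839 genes and a threshold of 0.05, called 0 of these 8 in hybrid against 129, where 7.02% of all tested genes were called, 0 of 8 in hybrid against CAST (6.0% of all tested genes) and 0 of 8 in CAST against 129 (0.917%). Before adjustment, 1, 2 and 0 of the 8 had a p under 0.05 in the same order of comparisons, where 22.2%, 15.8% and 14.6% of all tested genes had one. DESeq2 called 0, 1 and 0, against 14.2%, 10.8% and 6.33% of all tested genes, and limma-voom called 0, 0 and 0, against 7.67%, 6.73% and 1.77%. None of the 8 had all hybrid libraries above all 129 libraries, as 20.5% of tested genes did, or above all CAST libraries (10.7%), and none had all CAST libraries below all 129 libraries (13.5%). All 9 matched members passed the filter on low counts.

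Slc7a11 (ENSMUSG00000027737, chromosome 3, 49892526 to 50443614, minus strand) encodes xCT, the light chain that moves cystine in and glutamate out. It stood at 235, 755 and 617 CPM in hybrid libraries 1 to 3, at 0.206, 6.29 and 13.4 CPM in CAST, and at 3.95, 7.62 and 9.997 CPM in 129. The lowest hybrid library lay above every parental library, as for 7.21% of all tested genes, and the CAST and 129 libraries overlapped. The reads behind these levels were 3323, 5401 and 8827 in the hybrid, 2, 112 and 187 in CAST, and 71, 125 and 174 in 129. As a ratio of summed reads over summed effective library sizes, the hybrid was 69.0-fold higher than 129 and 67.9-fold higher than CAST. The fitted log2 fold change was 6.22 ± 1.20 (SE) in hybrid against 129, 6.33 ± 1.20 in hybrid against CAST and −0.11 ± 0.97 in CAST against 129. Between the parental lines the sign depended on the setting, with 0.45 without CAST 1, 0.44 without both CAST 1 and hybrid 2, 0.20 without 129 3, 0.14 with an offset for exon length, −1.12 without CAST 3 and −1.08 by limma-voom. Within the hybrid the level also varied, from 235 CPM in hybrid 1 to 755 CPM in hybrid 2. Leaving out CAST 3 gave 7.31 for hybrid against CAST, leaving out CAST 1 gave 5.74, and without both CAST 1 and hybrid 2 the values were 5.91 against 129 and 5.47 against CAST. With an offset for exon length the value against 129 was 7.42. None of the exonic bases of Slc7a11 overlap exons of another gene in the annotation.

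**Figure D1:**
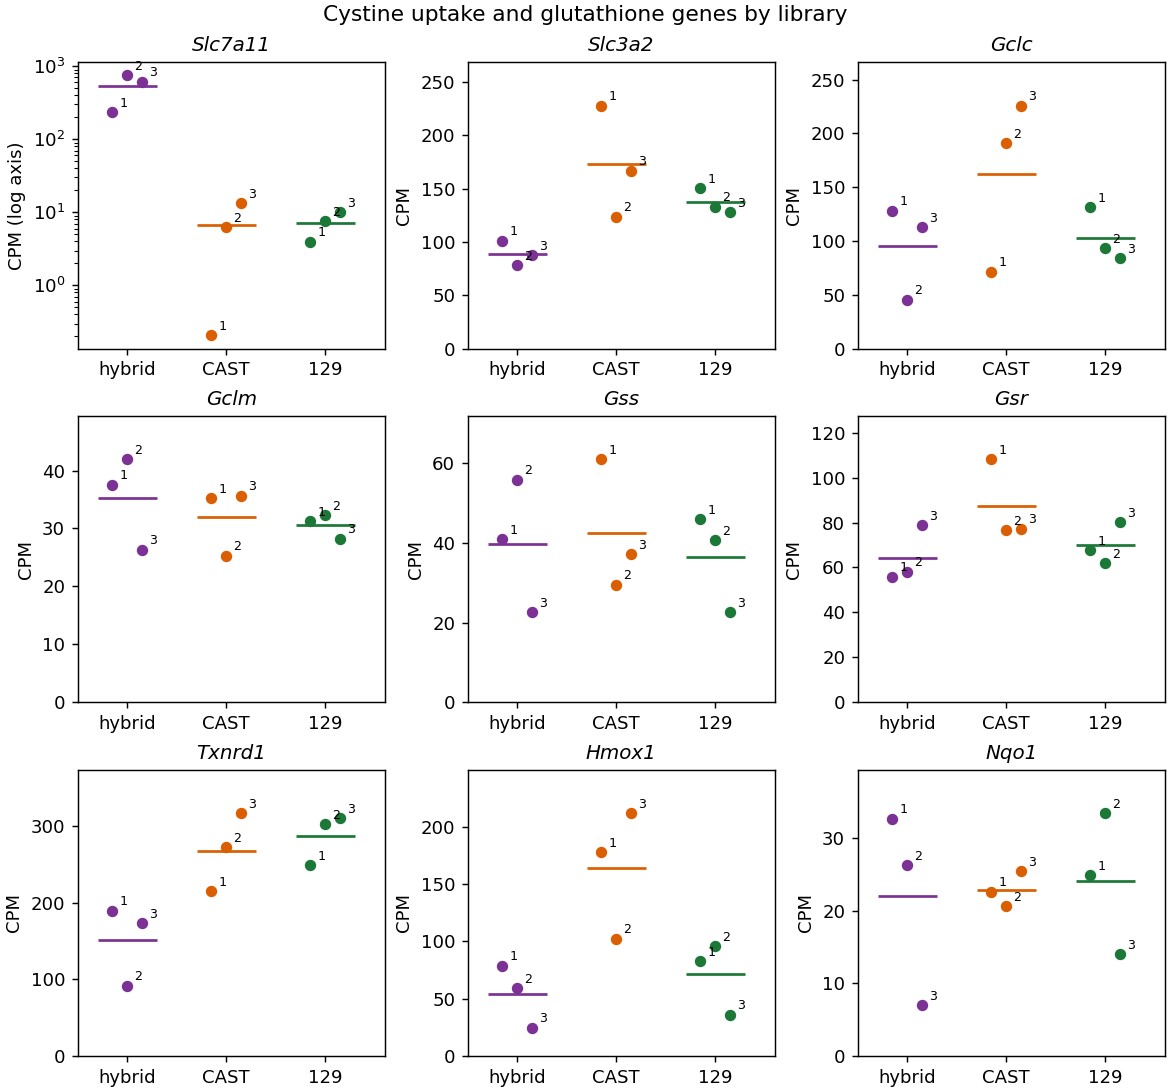
Level of each matched member in CPM, by line and library number, with bars at the mean of 3 libraries; the Slc7a11 axis is logarithmic and the others start at 0. Slc7a11 stands at 235 to 755 CPM in the hybrid and at most 13.4 CPM elsewhere. The hybrid libraries of Slc3a2 and Txnrd1 lie below all parental ones, as in 4.33% of all tested genes.

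Markers of other cells were summed beside this level. Summed levels of 9 astrocyte markers were 714 to 788 CPM in the hybrid, 586 to 1225 CPM in CAST and 333 to 719 CPM in 129. EdgeR called 0 of the 9 in any comparison. Of all tested genes it called 7.02% in hybrid against 129, 6.0% in hybrid against CAST and 0.917% in CAST against 129. Fibroblast markers were at 19198, 3826 and 1022 CPM in hybrid 1 to 3, where Slc7a11 was at 235, 755 and 617 CPM. Of these 9 markers, too, 0 were called in any comparison, beside the same shares of all tested genes. The sum of 8 microglia and blood markers was 27.0 to 45.4 CPM in the hybrid, 6.81 to 19.1 CPM in CAST and 4.002 to 7.47 CPM in 129. Of these 8, C1qa and Hbb-bs were at 0 counts in all 3 lines, 2 were tested, and Cx3cr1 was called higher in the hybrid against both parental lines. EdgeR called 5.41% of all tested genes higher in hybrid against 129 and 4.41% in hybrid against CAST. Of 7 oligodendrocyte lineage markers, summing to 29.1 to 66.9 CPM in the hybrid, 6.40 to 27.9 CPM in CAST and 61.1 to 125 CPM in 129, Mog was likewise called higher in both hybrid comparisons and was at 0 counts in CAST. The part of other cells in the Slc7a11 level was not tested.

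Slc3a2 (ENSMUSG00000010095, chromosome 19, 8706882 to 8723369) encodes the heavy chain CD98, which brings xCT and several other amino acid carriers to the cell surface. It stood at 101, 78.1 and 87.3 CPM in hybrid 1 to 3, at 228, 123.4 and 167 CPM in CAST, and at 150, 133 and 128 CPM in 129. Every hybrid library lay below every parental library, a pattern found in 4.33% of all tested genes. The log2 fold change was −0.62 (95% interval −1.38 to 0.13, edgeR adjusted p = 0.295) in hybrid against 129 and −0.96 (−1.72 to −0.20, edgeR adjusted p = 0.176) in hybrid against CAST. Neither passed, while DESeq2 gave an adjusted p of 0.0490 against CAST. The estimates for the heavy chain thus had the opposite sign to those of its light chain. Without both CAST 1 and hybrid 2 they were −0.53 and −0.59.

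None of the 3 members that make glutathione was called in any comparison. Gclc (ENSMUSG00000032350, chromosome 9, 77754535 to 77794485) encodes the catalytic subunit of glutamate-cysteine ligase, the rate-limiting enzyme of the pathway. It stood at 128, 45.5 and 113 CPM in the hybrid, at 71.4, 191 and 226 CPM in CAST, and at 131, 93.2 and 84.2 CPM in 129. The libraries of the 3 lines overlapped, and the lowest values of the hybrid and of CAST were those of hybrid 2 and CAST 1. Its log2 fold change was −0.11 (95% interval −1.28 to 1.07, edgeR adjusted p = 0.906) in hybrid against 129, −0.77 (−1.95 to 0.41, adjusted p = 0.597) in hybrid against CAST and 0.66 (−0.52 to 1.84, adjusted p = 0.540) in CAST against 129.

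Gclm (ENSMUSG00000028124, chromosome 3, 122245557 to 122270732), on the same chromosome as Slc7a11, encodes the modifier subunit of that ligase. It stood at 37.6, 41.9 and 26.3 CPM in the hybrid, at 35.2, 25.3 and 35.7 CPM in CAST, and at 31.3, 32.3 and 28.2 CPM in 129. The lines overlapped, and the interval of its log2 fold change was −0.49 to 0.90 in hybrid against 129 and −0.56 to 0.83 in hybrid against CAST (estimates 0.20 and 0.14, edgeR adjusted p = 0.686 and 0.913). Gss (ENSMUSG00000027610, chromosome 2, 155563181 to 155592810), the synthetase of the second step, stood at 40.9, 55.9 and 22.6 CPM in the hybrid, at 60.9, 29.5 and 37.2 CPM in CAST, and at 46.0, 40.7 and 22.6 CPM in 129. Its intervals were −0.89 to 1.14 against 129 and −1.11 to 0.92 against CAST (estimates 0.13 and −0.10, edgeR adjusted p = 0.871 and 0.959). Antisense exons overlap 15.4% of the exonic bases of Gss, and exons of other genes overlap 3.88% of those of Gclm on its strand and 4.71% on the other. The strand setting of the counting is not given in the sources used here, so reads of these genes and their partners cannot be told apart there.

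Of the enzymes that keep thiols reduced, neither Gsr nor Txnrd1 was called in any comparison, and they were not tested against each other. Gsr (ENSMUSG00000031584, chromosome 8, 33652523 to 33698163), glutathione reductase, stood at 56.0, 58.1 and 78.8 CPM in the hybrid, at 108, 76.5 and 77.2 CPM in CAST, and at 67.8, 61.9 and 80.1 CPM in 129. The lines overlapped, with log2 fold changes of −0.12 (95% interval −0.82 to 0.58) in hybrid against 129 and −0.44 (−1.15 to 0.27) in hybrid against CAST (edgeR adjusted p = 0.822 and 0.619).

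Txnrd1 (ENSMUSG00000020250, chromosome 10, 82833951 to 82897712, plus strand) encodes the cytosolic thioredoxin reductase, a selenoprotein whose active site uses a selenocysteine read from a UGA codon just before the end of the protein. That codon sets it apart from the other members matched here, and it lies at chr10:82896037-82896039 in GRCm38 (plus strand). The end of the coding sequence, from the GENCODE M21 transcripts, is shown with the selenocysteine codon in capitals, 1 codon before the stop codon taa.
Txnrd1: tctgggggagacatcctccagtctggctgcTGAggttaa
Txnrd1 stood at 189, 91.8 and 173 CPM in the hybrid, at 215, 272 and 317 CPM in CAST, and at 249, 303 and 310 CPM in 129. As with Slc3a2, all hybrid libraries lay below all parental ones, a pattern of 4.33% of all tested genes. The log2 fold change was −0.92 (95% interval −1.79 to −0.05, unadjusted p = 0.0400, edgeR adjusted p = 0.206) in hybrid against 129 and −0.82 (−1.69 to 0.05, edgeR adjusted p = 0.353) in hybrid against CAST. Neither passed, and without both CAST 1 and hybrid 2 the estimates were −0.65 and −0.66.

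Hmox1 and Nqo1 are inducible NRF2 targets and often serve as its readouts. Hmox1 (ENSMUSG00000005413, chromosome 8, 75093621 to 75100589), heme oxygenase 1, stood at 78.8, 59.1 and 24.6 CPM in the hybrid, at 178, 102 and 212 CPM in CAST, and at 82.8, 95.8 and 35.9 CPM in 129. The CAST libraries lay above all hybrid and all 129 libraries. The log2 fold change was −1.60 (95% interval −2.82 to −0.38, edgeR adjusted p = 0.157, DESeq2 adjusted p = 0.0521) in hybrid against CAST, −0.40 (−1.59 to 0.79, adjusted p = 0.644) in hybrid against 129 and 1.20 (−0.01 to 2.41, adjusted p = 0.346) in CAST against 129. None of the 3 passed. Pair by pair, hybrid libraries lay below those of CAST in 8.57% of all tested genes, and CAST libraries lay above those of 129 in 15.2%. The share with CAST above both other lines was not computed.

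Nqo1 (ENSMUSG00000003849, chromosome 8, 107388225 to 107403206), a quinone reductase, stood at 32.7, 26.3 and 6.99 CPM in the hybrid, at 22.6, 20.6 and 25.4 CPM in CAST, and at 24.8, 33.4 and 14.02 CPM in 129. Its log2 fold changes were −0.13 (95% interval −1.35 to 1.08) in hybrid against 129 and −0.06 (−1.27 to 1.15) in hybrid against CAST (edgeR adjusted p = 0.887 and 0.978). Hybrid 3, where Slc7a11 was at 617 CPM, had the lowest Hmox1 and Nqo1 of all 9 libraries. Among the 129 libraries, 129 3 was likewise the lowest for both genes. Hybrid 2, where Slc7a11 was highest at 755 CPM, had Nqo1 at 26.3 CPM, above every CAST library. Its Hmox1, at 59.1 CPM, lay below every CAST library.

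**Figure D2:**
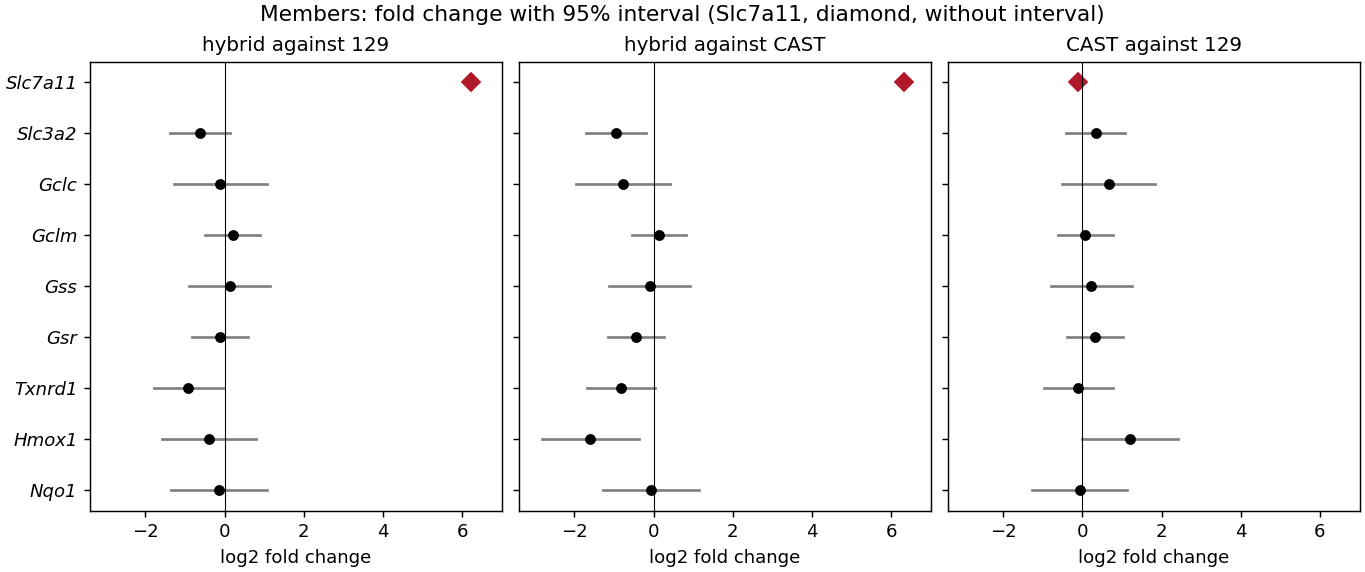
Log2 fold change of each matched member in the 3 comparisons, with 95% intervals from edgeR as lines; the diamond is Slc7a11, drawn without an interval. In both hybrid comparisons the diamond lies above 6 while the upper ends of all other intervals stay below 1.2.

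The edgeR intervals, each for 1 gene alone, set the size of a change that these libraries leave possible under that fit. Across the other 8 members, the highest upper end was 1.14 in hybrid against 129, for Gss, and 1.15 in hybrid against CAST, for Nqo1, against fitted values of 6.22 and 6.33 for Slc7a11. The estimates ran from −0.92 to 0.20 against 129, with 2 of 8 positive and a median of −0.13, and from −1.60 to 0.14 against CAST, with 1 of 8 positive and a median of −0.60. The medians over all tested genes were 0.02 and −0.08. The 2 comparisons share the hybrid libraries. With the exon length offset the estimates of these members in hybrid against 129 ran from −1.13 for Hmox1 to 0.51 for Gclm. In CAST against 129, 6 of 8 were positive, with a median of 0.27, against 0.06 over all tested genes.

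Levels of different members were compared per kb of exon. In the hybrid Slc7a11 had the highest mean level of the 9 matched members, 38.5 ± 19.3 CPM per kb (SD, n = 3), beside 30.9 ± 15.7 for Hmox1, 25.3 ± 11.7 for Gclc and 25.2 ± 3.30 for Slc3a2, values that lie within each other's spread. In both parental lines Slc7a11 was the lowest, at 0.476 ± 0.474 CPM per kb in CAST and 0.516 ± 0.219 in 129. Gclm was the lowest of the 9 in the hybrid, at 5.61 ± 1.28 CPM per kb, and the next lowest after Slc7a11 in CAST (5.10 ± 0.935) and 129 (4.86 ± 0.336). Hmox1 was the highest in CAST, at 93.7 ± 31.9 CPM per kb, and also had the highest mean in 129, at 40.8 ± 18.01, where Txnrd1 (40.5 ± 4.72) and Slc3a2 (38.8 ± 3.31) did not differ from it beyond their spread. The exon lengths are those of GENCODE M21, and the annotation behind the counts is not stated.

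**Figure D3:**
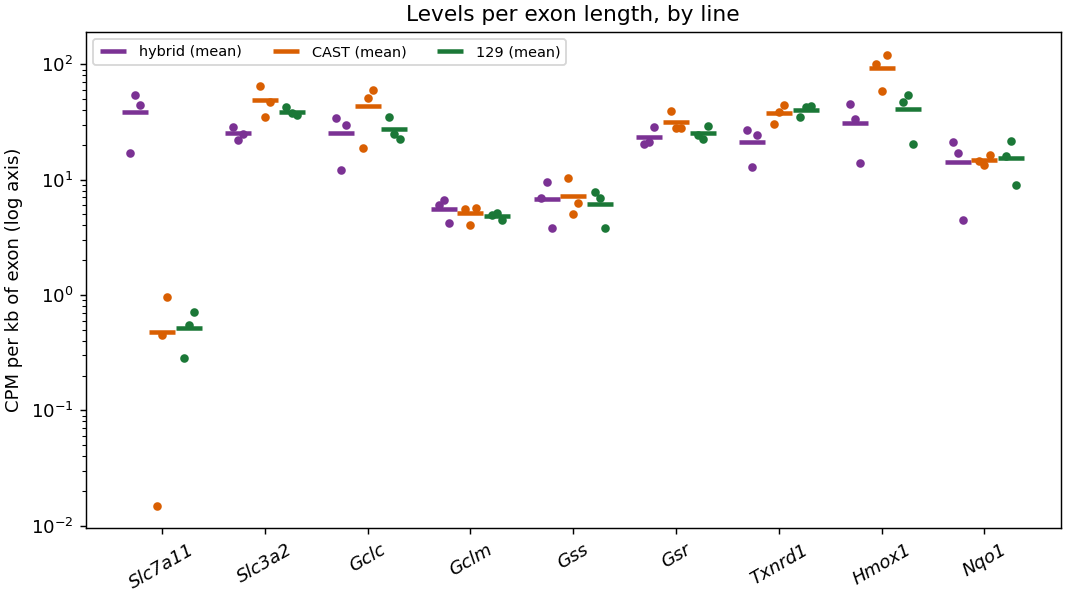
Level per kb of exon of each matched member on a logarithmic axis, as points for the 3 libraries and a bar for the mean of each line. Slc7a11 averages 38.5 CPM per kb in the hybrid, the highest of the 9 there, against 0.476 CPM per kb in CAST and 0.516 CPM per kb in 129, the lowest of the 9 in both.

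Likeness to Slc7a11 was measured as the root mean square difference of log2 CPM over the 9 libraries, each gene centred on its own mean. A gene at the same level in every library would be 3.49 log2 units away. Of the 8 other members, 7 were farther than that, from 3.64 for Gss to 4.14 for Hmox1, where 63.8% of the other tested genes were also farther. Gclm was at 3.46, with 31.3% of the other tested genes nearer to Slc7a11 than Gclm. The nearest named genes with a mean of at least 5 CPM were Nrg4 (1.20 log2 units), which encodes a neuregulin, Slc23a1 (1.23), a vitamin C transporter, Scamp4 (1.28), Pdf (1.29), a mitochondrial peptide deformylase, and Hypk (1.35). Chosen for this likeness, all 5 were at 2.30 CPM or less in every parental library. Nrg4, for example, stood at 22.0 ± 3.51 CPM in the hybrid, at 0.170 ± 0.151 CPM in CAST and at 0.154 ± 0.0861 CPM in 129 (SD, n = 3). Of the exonic bases of Scamp4, Pdf and Hypk, 80.5%, 76.6% and 35.9% overlap exons of another gene on the same strand, so the gene of origin of their reads is uncertain, whereas Nrg4 and Slc23a1 have no such overlap.

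The wider pathway was read from 7 lists with 129 genes, of which 125 were matched and 122 tested. Me1, Ftl1, Gstp1 and Dhodh were not analysed here, and Ugt1a6a, Alox12 and Alox15 did not pass the filter. In hybrid against 129 edgeR called 6 higher and 2 lower, together 6.56% of the 122, where it called 5.41% of all tested genes higher and 1.60% lower. In hybrid against CAST it called 1 higher and 4 lower, together 4.10%, where it called 4.41% of all tested genes higher and 1.60% lower. In CAST against 129 it called 1 higher and 0 lower, or 0.820%, where it called 0.391% of all tested genes higher and 0.526% lower. The count in hybrid against 129 was 1 without hybrid 3, 129 2 or 129 3, 2 without hybrid 2 and 4 without 129 1. A block for replicate number ended all these calls except Ddit3 in both hybrid comparisons and Mgst2 in hybrid against CAST. This comes on top of the settings given for each gene below. The ended calls had edgeR adjusted p from 0.0593 to 0.158 with the block.

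None of the regulators of NRF2 was called in any comparison. EdgeR called 0 of 10 in hybrid against 129, hybrid against CAST and CAST against 129, where it called 7.02%, 6.0% and 0.917% of all tested genes. An unadjusted p under 0.05 was found for 1, 0 and 0 of the 10, against 22.2%, 15.8% and 14.6% of all tested genes, and DESeq2 called 0. Nfe2l2, which encodes NRF2, stood at 106, 96.1 and 73.5 CPM in the hybrid, at 104, 99.3 and 111 CPM in CAST, and at 89.3, 64.2 and 45.0 CPM in 129. Keap1 averaged 52.6 ± 10.7 CPM in the hybrid, 81.0 ± 28.1 CPM in CAST and 52.7 ± 2.01 CPM in 129 (SD, n = 3). Bach1, a repressor at NRF2 sites, averaged 22.7 ± 17.0 CPM in the hybrid, 33.1 ± 22.1 CPM in CAST and 67.2 ± 17.7 CPM in 129. The hybrid libraries of Bach1 lay below those of 129, as in 16.9% of all tested genes, with an edgeR adjusted p of 0.242. The related factor Nfe2l1 averaged 358 ± 229 CPM in the hybrid, 409 ± 186 CPM in CAST and 548 ± 82.8 CPM in 129. The ligase component Rbx1 averaged 193 ± 117, 181 ± 152 and 81.6 ± 11.9 CPM in the same order of lines.

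Of the 18 tested genes on the list of other NRF2 targets, Aldh3a1, an aldehyde dehydrogenase, changed in all 3 comparisons, and its values in CAST were known when the list was written. It stood at 0.637, 4.47 and 3.98 CPM in the hybrid, at 29.8, 31.4 and 15.7 CPM in CAST, and at 0.334, 0.183 and 0.172 CPM in 129. The hybrid thus lay between the parental lines, with no overlap. Pair by pair, hybrid libraries lay above those of 129 in 20.5% of all tested genes and below those of CAST in 8.57%. Its log2 fold change was 3.65 ± 0.76 (SE, edgeR adjusted p = 0.0182) in hybrid against 129, −3.10 ± 0.67 (adjusted p = 0.0237) in hybrid against CAST and 6.74 ± 0.82 (adjusted p = 0.00750) in CAST against 129. The call of Aldh3a1 in hybrid against 129 ended without hybrid 2, hybrid 3 or any single 129 library (adjusted p from 0.0541 to 0.0947), without both CAST 1 and hybrid 2 (0.0511) and by limma-voom (0.0607). Its call in hybrid against CAST ended without hybrid 3 (0.0548), CAST 2 (0.0721) or both CAST 1 and hybrid 2 (0.0650), and with only the lines compared in the fit (0.0831). Its call between the parental lines ended without 129 2 (0.0630) or 129 3 (0.0592). The other 17 genes of the list were not called. Of all tested genes edgeR called 7.02% in hybrid against 129, 6.0% in hybrid against CAST and 0.917% in CAST against 129. The list median was 0.47 in hybrid against 129, with 0.06 without both CAST 1 and hybrid 2 and 0.0085 with the exon length offset, and −0.13 in hybrid against CAST. In CAST against 129 it was 0.55, with 0.28 and 0.54 under the same settings. Of the 18 genes, 15 were positive in hybrid against 129, 7 in hybrid against CAST and 16 in CAST against 129. Of all tested genes 50.7%, 45.4% and 52.4% were positive.

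Among 28 tested glutathione enzymes, 26 had a positive log2 fold change in hybrid against 129, with a median of 0.85, and 15 in hybrid against CAST, with a median of 0.63. Of all tested genes 50.7% and 45.4% were positive. In CAST against 129, 19 of the 28 were positive, with a median of 0.48. Without both CAST 1 and hybrid 2 the 3 medians were 0.29, 0.41 and 0.036, and with the exon length offset 0.27, −0.023 and 0.37. Gstm1, a glutathione transferase, was higher in the hybrid, at 68.0, 130 and 191 CPM against 46.1, 26.8 and 28.3 CPM in 129 (log2 fold change 1.94 ± 0.44, SE, edgeR adjusted p = 0.0271). In CAST it was at 141, 145 and 115 CPM, within the range of the hybrid. The Gstm1 call ended without hybrid 2, hybrid 3 or any single 129 library (adjusted p from 0.0523 to 0.155). It also ended with the exon length offset, where the log2 fold change of Gstm1 was 0.98 (adjusted p = 0.206). Gstt1, another transferase, was higher in the hybrid than in CAST, at 7.15, 27.4 and 15.4 CPM against 2.89, 1.68 and 2.22 CPM (2.88 ± 0.69, edgeR adjusted p = 0.0381). In 129 Gstt1 was at 20.5, 6.10 and 5.46 CPM, overlapping the hybrid (0.63, adjusted p = 0.540). Every 129 library lay above every CAST library, as in 13.5% of all tested genes. The Gstt1 call ended without hybrid 2, hybrid 3, any single CAST library or 129 2 (0.0501 to 0.141), without both CAST 1 and hybrid 2 (0.128) and by limma-voom (0.0640). Some transferases of 1 class, such as the mu class of Gstm1, are close in sequence, and how the counting treated reads shared between them is not stated. Mgst2, a microsomal transferase, was at 0 counts in all hybrid libraries and at 17.2, 3.93 and 3.37 CPM in CAST, at least 81.3-fold lower in the hybrid (edgeR adjusted p = 0.00543). The floor for such bounds was 3 counts over the group, and they cover counting error only. In 129 Mgst2 was at 1.06, 0.671 and 0.977 CPM, so the hybrid was at least 10.8-fold lower (edgeR adjusted p = 0.0365). Mgst2 was named after its values were seen, as its mean lay under 5 CPM, and its call against 129 ended without any single hybrid or 129 library (adjusted p from 0.0590 to 0.0990).

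Genes of the thioredoxin system and of peroxide removal were positive in 15 of 15 tested in hybrid against 129, with a median of 0.90, in 8 of 15 in hybrid against CAST, with a median of 0.08, and in 14 of 15 in CAST against 129, with a median of 0.85. Of all tested genes 50.7%, 45.4% and 52.4% were positive. Without both CAST 1 and hybrid 2 the 3 medians were 0.24, 0.28 and 0.06, and with the exon length offset 0.38, −0.23 and 0.40. EdgeR called 5.41% of all tested genes higher in hybrid against 129. Sod3, the secreted superoxide dismutase, was the 1 gene of this list that edgeR called, in hybrid against 129. It stood at 113, 109 and 222 CPM in the hybrid, at 49.0, 103 and 99.9 CPM in CAST, and at 46.1, 20.7 and 18.4 CPM in 129, with a log2 fold change of 2.38 ± 0.52 (SE) in hybrid against 129 (edgeR adjusted p = 0.0232). The Sod3 call ended without hybrid 3, 129 2 or 129 3 (adjusted p = 0.0811, 0.134 and 0.119).

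Among 20 tested genes of cystine and amino acid supply the median was −0.40 in hybrid against 129 and −0.45 in hybrid against CAST. Slc7a10, another light chain that pairs with the Slc3a2 heavy chain and carries small neutral amino acids, was higher in the hybrid, at 4.599, 10.1 and 7.13 CPM against 0.723, 0.0610 and 0.0575 CPM in 129 (log2 fold change 4.63 ± 1.08, SE, edgeR adjusted p = 0.0326). In CAST it was at 0.103, 1.12 and 0.215 CPM, below every hybrid library, with an adjusted p of 0.0686. Hybrid libraries lay above all parental ones in 7.21% of all tested genes. The Slc7a10 call ended without hybrid 2, hybrid 3, 129 2 or 129 3 (adjusted p from 0.0704 to 0.136). It was named after its values were seen, and 17.9% of its exonic bases overlap an antisense gene. Slc1a4, a carrier of alanine, serine and cysteine, was lower in the hybrid than in CAST, at 24.7, 10.6 and 19.1 CPM against 49.7, 81.3 and 84.3 CPM (−1.98 ± 0.41, edgeR adjusted p = 0.0185). In 129 Slc1a4 was at 39.5, 49.1 and 61.8 CPM, above every hybrid library, with an adjusted p of 0.0639. Hybrid libraries lay below all parental ones in 4.33% of all tested genes. The Slc1a4 call ended without hybrid 2, hybrid 3, CAST 2 or CAST 3 (0.0534 to 0.0667) and with only the lines compared in the fit (0.0713).

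**Figure D4:**
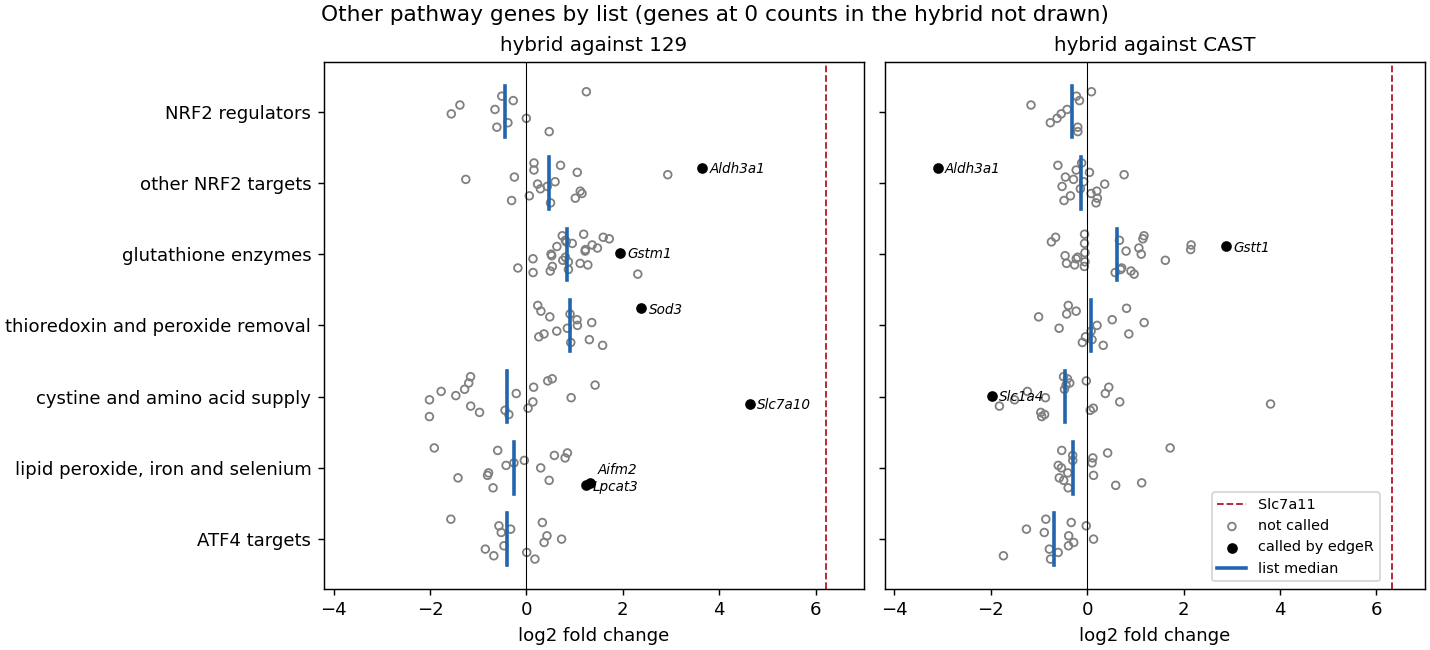
Log2 fold change of each tested gene of the 7 pathway lists in both hybrid comparisons, with genes called by edgeR filled and named and the list medians as bars. The dashed line at 6.22 and 6.33 marks Slc7a11, and no drawn gene reaches it; Ddit3 and Mgst2, at 0 counts in the hybrid, are not drawn.

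Of 17 tested genes of lipid peroxides, iron and selenium, edgeR called Lpcat3 and Aifm2 higher in hybrid against 129. In that comparison 5.41% of all tested genes were called higher. DESeq2 called 3 of the 17 there, against 14.2% of all tested genes. Lpcat3 loads membrane phospholipids with polyunsaturated fatty acids, and Aifm2 encodes FSP1, which guards membranes against lipid peroxidation without glutathione. Lpcat3 stood at 99.8, 127 and 119 CPM in the hybrid, at 76.4, 82.1 and 70.8 CPM in CAST, and at 53.1, 48.4 and 46.1 CPM in 129, with a log2 fold change of 1.23 ± 0.29 (SE) in hybrid against 129 (edgeR adjusted p = 0.0310). Aifm2 stood at 24.2, 42.8 and 44.9 CPM in the hybrid, at 19.3, 17.7 and 13.98 CPM in CAST, and at 17.1, 13.9 and 13.6 CPM in 129 (1.33 ± 0.34 in hybrid against 129, adjusted p = 0.0477). For both genes every hybrid library lay above every CAST and every 129 library, as in 7.21% of all tested genes. Neither was called in hybrid against CAST (edgeR adjusted p = 0.361 for Lpcat3 and 0.0978 for Aifm2). Both calls ended without hybrid 2, hybrid 3, CAST 2, CAST 3 or any single 129 library, with adjusted p from 0.0532 to 0.182 for Lpcat3 and from 0.0637 to 0.221 for Aifm2. They also ended with no filter on low counts (Lpcat3 0.0987, Aifm2 0.0914). The Lpcat3 call ended with the exon length offset (0.0521), and the Aifm2 call by limma-voom (0.0538), with only the lines compared in the fit (0.0573) and without both CAST 1 and hybrid 2 (0.0528). The list median was −0.26 in hybrid against 129, with −0.22 without both CAST 1 and hybrid 2 and −0.016 with the exon length offset. It was −0.30 in hybrid against CAST, with 0.028 and −0.35 under the same settings. There edgeR called 0 of 17, against 6.0% of all tested genes. DESeq2 called 2, against 10.8%, and 2 had an unadjusted edgeR p below the threshold, against 15.8%.

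Of 14 tested ATF4 targets, Ddit3 alone was called, lower in both hybrid comparisons. In each of these edgeR called 1.60% of all tested genes lower. In either direction it called 7.02% in hybrid against 129 and 6.0% in hybrid against CAST. Ddit3 encodes CHOP, a stress-induced transcription factor. It was at 0 counts in all 3 hybrid libraries, and at 119, 20.8 and 29.2 CPM in CAST and 30.2, 30.9 and 21.0 CPM in 129, at least 553-fold lower in the hybrid than in CAST and at least 325-fold lower than in 129 (edgeR adjusted p = 0.00193 and 0.00262). The call held without each single library. Ddit3 was 1 of 25 genes at 0 counts in all hybrid libraries among 9638 genes with at least 5 CPM in each of the 6 parental libraries. The 25 include Tuba1b, an alpha-tubulin, and mt-Nd5, a mitochondrially encoded subunit of the respiratory chain, both named after their values were seen. By the same measure 2 genes were at 0 in CAST and 0 in 129. Exons of other genes overlap 12 of these 25 on the same strand, against 7.47% of the 9638, and 6.13% of the exonic bases of Ddit3. Whether the hybrid libraries were counted like the others is not stated, and its part in the levels of Ddit3, Mgst2 or Slc7a11 was not tested. Atf4 itself stood at 147, 203 and 146 CPM in the hybrid, at 514, 119 and 205 CPM in CAST, and at 125, 145 and 168 CPM in 129, with an edgeR adjusted p of 0.842 in hybrid against 129 and 0.598 in hybrid against CAST. The list median was −0.40 in hybrid against 129 and −0.68 in hybrid against CAST, against 0.02 and −0.08 over all tested genes. Without both CAST 1 and hybrid 2 the medians of the ATF4 targets were −0.47 and −0.17, and with the exon length offset −0.91 and −0.82.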

How the data were processed

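RNA of 9 libraries was analysed, 3 from each of 3 lines. The deposited matrix holds counts, whole numbers of reads per Ensembl gene. The submitters' processing notes name STAR and mm10; no source used here gives the counting tool, annotation or strand setting. Columns were matched by line and number, and 0 per-sample columns were left unused. Symbols for 27031 of 27071 genes, positions and exon lengths came from GENCODE M21 (GRCm38, the assembly of mm10).

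Genes were filtered with filterByExpr (minimum count 10, total 15, proportion 0.7), which left 14839, and TMM-scaled. All lines entered 1 robust quasi-likelihood fit without a block (edgeR 4.0.16, R 4.3.3). DESeq2 1.42.0 and limma 3.58.1 (voom) were alternatives. The fit was tested on simulated data. Standard errors and 95% intervals come from the quasi-likelihood F statistic, and log2 CPM used a prior count of 2. Pathway genes were named by rule, up to 2 per direction, list and comparison with a mean of at least 5 CPM, or the 2 with most reads where none passed, plus Nfe2l2, Keap1, Bach1, Atf4 and the 5 genes most like Slc7a11. Members and lists were chosen with earlier results of these data known. Replicate numbers are not stated to pair libraries. Alternatives are given in the closing section; the list medians were added to them after seeing the data.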

Additional observations from a re-analysis of the deposited data

How the results depend on the processing

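Each result was recomputed under 17 alternatives, with some exceptions. Aldh3a1 in hybrid against 129 had 16, because it was not tested with only the lines compared in the fit. In CAST against 129, Slc7a10, Nrg4, Slc23a1, Scamp4 and Pdf had 16 too. The count of members other than Slc7a11 called was 0 in all alternatives, except 1 (Slc3a2) by DESeq2 in hybrid against CAST. In hybrid against 129, 1041 genes were called (DESeq2 2100, replicate block 561, without single libraries 522 to 1717), and 8 pathway genes (17, 1, and 1 to 11). In hybrid against CAST 891 genes were called (1597, 526, and 643 to 923), and 5 pathway genes (11, 2, and 3 to 8; 3 with only the lines compared in the fit). In CAST against 129 it was 136 genes (939, 6, and 26 to 157; limma-voom 263, exon length offset 297, without both CAST 1 and hybrid 2 230), and 1 pathway gene (6, 0, and 0 to 1; limma-voom 2, exon length offset 2). Among the fits without single libraries, the count in hybrid against 129 was highest without CAST 1 and lowest without 129 2, and in CAST against 129 it was 51, 26, 32, 31 and 61 without 129 1, 129 2, 129 3, CAST 2 and CAST 3. Libraries with the same number deviated together (correlation above 0.1) in 2 of 9 pairs (−0.72 to 0.49). With deviations taken from means of 3 libraries, this cannot tell whether libraries of the same number share a batch. Log2 fold changes of the tested members, none past the threshold, changed sign as follows; those of Slc7a11 in CAST against 129 are given above. Without both CAST 1 and hybrid 2, Gclc and Gss were 0.23 and −0.19 in hybrid against 129, and Gclm, Gss and Txnrd1 −0.031, −0.16 and 0.010 in CAST against 129, where Txnrd1 was 0.24 with the exon length offset and Nqo1 0.0091 by limma-voom and 0.092 with the replicate block. Without single libraries, in hybrid against 129 Gclc ran from −0.40 to 0.23, Gss from −0.19 to 0.39 and Nqo1 from −0.62 to 0.28. In hybrid against CAST, Gclm ran from −0.017 to 0.30, Gss from −0.37 to 0.23 and Nqo1 from −0.50 to 0.36. In CAST against 129, Gclm ran from −0.023 to 0.21, Gss from −0.15 to 0.43, Txnrd1 from −0.24 to 0.022 and Nqo1 from −0.35 to 0.23. The cause of these shifts was not tested.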

Other observations

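The genes beside Slc7a11 on chromosome 3 did not share its level in the hybrid. The nearest tested protein-coding genes were Pcdh18, a protocadherin 135 kb away, and Elf2, a transcription factor 809 kb away on the other side, both looked up after the Slc7a11 values were known. Pcdh18 stood at 77.0, 12.4 and 7.06 CPM in the hybrid, at 3.82, 18.9 and 29.3 CPM in CAST, and at 63.5, 74.2 and 28.8 CPM in 129. Elf2 averaged 46.8 ± 16.6 CPM in the hybrid, 46.6 ± 10.2 CPM in CAST and 53.9 ± 1.03 CPM in 129 (SD, n = 3), and the libraries of the lines overlapped.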
